A study of Drosophila melanogaster with 42 samples.

Results

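Ageing was followed in female Drosophila that expressed a dominant negative form of p53 (DN-Dmp53) in their neurons, by comparing 3 arrays of flies aged 40 days with 3 arrays of flies aged 10 days. These 6 arrays were taken by their labels from the 42 of the series, and all genes were examined: of 11982 genes named by probesets that name a single gene, 9541 had a level above the lower limit of the values and were tested. The flies were of the yw, w1118 background, carried the RU486-inducible ELAV-GeneSwitch driver, which acts in neurons, with a construct for the dominant negative Dmp53, and were fed RU486 on the diet labelled normal. Their labels read "p53 knockdown", although the construct makes a dominant negative protein. The controls, 3 arrays at each age, were flies with the same driver and construct that received the diluent instead, and a further set of 3 and 3 arrays came from flies of the same background that also received RU486 but overexpressed dSir2. Each array held total RNA of whole bodies of at least 75 females, so that fewer cells of a type and less RNA per cell cannot be told apart.

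p53 is a transcription factor that responds to DNA damage and other stress, and a dominant negative form is one that joins with the normal protein and blocks it. In the fly, its expression in adult neurons is known as a way to lengthen life. Ageing flies in general are known for rising immune gene expression and for declining expression of genes of the ovary and of energy metabolism, and it is against this background that the ages were compared here. Values are log2 intensities normalised by the authors, so that a change of 1 is a 2-fold change, and they end at a floor of 2.11. A gene is called higher or lower where limma's adjusted p was below 0.05 and the fold exceeded 1.5.

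The p53 gene itself did not pass the test. Its level was 9.96, 10.16 and 10.02 at Day 10 and 9.81, 9.90 and 9.98 at Day 40, and the change was -0.15 (SE 0.07, adjusted p = 0.216). In the controls p53 stood at 9.82 ± 0.09 (SD, n = 3) at Day 10 and at 9.67 ± 0.09 at Day 40. A whole-body array that measures the endogenous and the introduced transcript together, with the driver confined to neurons, gives no direct check of the induction.

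Before the results, 2 of the Day 40 arrays must be set apart. The males' accessory gland makes seminal fluid proteins, and of 19 of its markers 2 were more than 1 log2 unit above the floor on every Day 10 array and on Day 40 replicate 2, but 16 were on Day 40 replicate 1 and 15 on Day 40 replicate 3. Acp98AB, for example, was at 2.11 on all Day 10 arrays and on Day 40 replicate 2, and at 9.83 and 9.87 on replicates 1 and 3. EbpII gave 9.78, 2.11 and 9.45 at Day 40, and SP, the sex peptide, 3.54, 2.11 and 4.01. In all, 20 genes lay at the floor on these 4 arrays and more than 1 log2 unit above it on the 2 others, and none of the 20 was called. The control arrays had the same 2 markers at both ages, and 2 of the dSir2 arrays of Day 40 had 10 and 8. Of 27 testis markers 22 were at the floor on all Day 10 arrays and 17 on all Day 40 arrays, while their summed level was 1950 to 2460 at Day 10 and 1570 to 1730 at Day 40. The main counts below are therefore also given from Day 40 replicate 2 alone against the 3 Day 10 arrays, a fit in which the lone array is assumed to vary like the others.

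**Figure D1:**
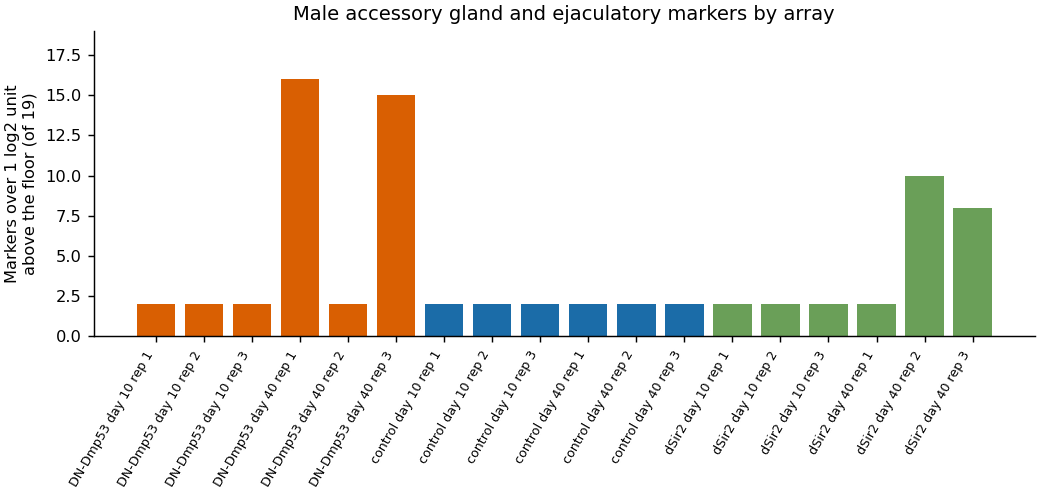
Number of male accessory gland and ejaculatory markers (vertical axis, of 19) more than 1 log2 unit above the floor on each array of the DN-Dmp53, control and dSir2 females (horizontal axis). Day 40 replicates 1 and 3 of the DN-Dmp53 females had 16 and 15, against 2 on the other 4 DN-Dmp53 arrays.

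With age, 737 genes were higher (7.72% of those tested) and 355 were lower (3.72%). The rises were also the larger changes: 398 genes rose and 63 fell more than 2-fold, and 25 rose and 2 fell more than 8-fold. Over all genes the median change was 0.00, with quartiles of -0.22 and 0.19, and the 3 Day 40 arrays lay wholly above the 3 Day 10 arrays in 2098 genes (22.0%) and wholly below them in 2227 (23.3%). These counts rest on few arrays. Without Day 10 replicate 2 the counts were 192 and 148, without Day 10 replicate 1 they were 214 and 169, without Day 40 replicate 1 they were 312 and 210, and without Day 40 replicate 3 they were 378 and 198. All 6 fits that left out 1 array called 142 of the 737 genes higher and 112 of the 355 lower. With Day 40 replicate 2 as the only Day 40 array, 176 genes were higher and 59 lower, 129 and 45 of them in common with the full comparison and none in the opposite direction. On Day 40 replicate 2 every one of the 719 genes called higher at their main probeset was above all 3 Day 10 arrays, though this array had a part in those calls.

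The largest rises were in immune genes. edin, which codes for a small secreted peptide induced by infection, was at 3.96 on all 3 Day 10 arrays and at 12.06, 10.17 and 11.25 at Day 40. The change of 7.20 (SE 0.51, adjusted p = 0.0057) is a 147-fold rise, to be read as a minimum because the Day 10 arrays did not differ from each other to 2 decimals. That the ages did not overlap was a condition for naming this gene and the others picked for their change with age. AttD, an attacin, rose from 3.29, 2.97 and 3.46 to 10.02, 9.55 and 10.71, a change of 6.85 (SE 0.34, adjusted p = 0.00393). DptB, a diptericin and a usual marker of the Imd pathway, rose from 7.40, 7.36 and 8.01 to 13.61, 12.23 and 13.23. That is a change of 5.44 (SE 0.43, adjusted p = 0.00698), with replicate 2 the lowest of the Day 40 arrays in all 3 genes. Mtk, the antifungal metchnikowin, stood at 10.15, 10.54 and 11.09 and then at 14.87, 14.03 and 14.74, a change of 3.96 (SE 0.35, adjusted p = 0.00804).

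**Figure D2:**
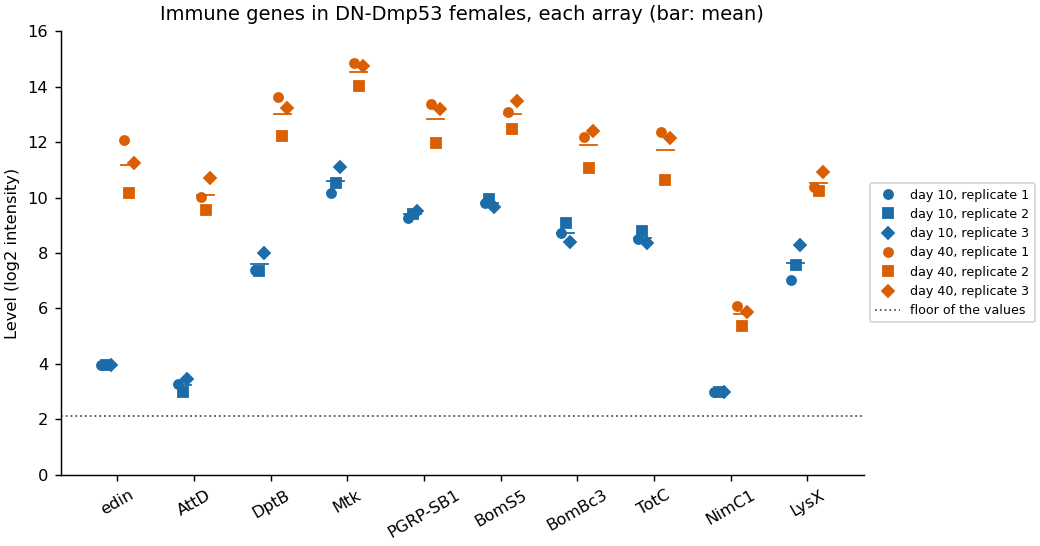
Level in log2 intensity (vertical axis) of 10 immune genes on each DN-Dmp53 array at Day 10 (blue) and Day 40 (orange), with bars for the means of 3 arrays and a dotted line at the floor. The genes were named by a rule that required a call and no overlap between the ages, so their separation is a condition and not a result. In each of the 10 genes Day 40 replicate 2 was the lowest Day 40 array.

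Of 12 antimicrobial peptide genes tested, 6 were higher and none was lower, with a median change of 1.13 against 0.00 over all genes. The other members included Def, with a change of 1.37 (adjusted p = 0.054), and CecB, with 1.09 (adjusted p = 0.166), neither of which passed. All 9 Bomanins and relatives, short peptides released into the haemolymph under control of the Toll pathway, were higher, with a median of 1.57. BomS5 rose from 9.82, 9.96 and 9.65 to 13.07, 12.47 and 13.48 (3.19, SE 0.29), and BomBc3 from 8.73, 9.07 and 8.41 to 12.17, 11.07 and 12.40 (3.15, SE 0.42). BomT2 rose by 1.99 and BomS2 by 1.68 on the log2 scale. From Day 40 replicate 2 alone the medians of these lists were 0.77 and 1.17, with 3 antimicrobial peptides and 4 Bomanins called. Without Day 10 replicate 1, Day 10 replicate 2 or Day 40 replicate 1 in turn, 2, 2 and 3 Bomanins passed.

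Among receptors and regulators of immune signalling 10 of 26 were higher and 1 was lower (median 0.40), and the other 15 did not pass. The recognition protein PGRP-SB1 rose from 9.25, 9.41 and 9.53 to 13.39, 11.97 and 13.18, a change of 3.45 (SE 0.42, adjusted p = 0.0124). PGRP-LF and pirk, both of which restrain the Imd pathway, rose by 1.92 and 1.91, and SPE, the protease that activates the Toll ligand, rose by 1.88. The exception was the receptor gene Tl, which fell by 0.74 on the log2 scale (adjusted p = 0.0118) and was singled out after its values were seen. With Day 40 replicate 2 alone 3 members were called higher, and without Day 10 replicates 1, 2 and Day 40 replicates 1 and 3 in turn 2, 1, 4 and 6 were. Among stress peptides of the Turandot family and related JAK/STAT genes 1 of 5 was higher, TotC, at 8.51, 8.80 and 8.35 and then at 12.35, 10.63 and 12.14 (3.15, SE 0.52, adjusted p = 0.0214). Of the fits that left out 1 array, only that without Day 40 replicate 2 called a member of this Turandot and JAK/STAT list higher. Measured on Day 40 replicate 2 alone, the TotC change was 2.08. LysX, a lysozyme, rose by 2.89.

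Markers of haemocytes, the blood cells, were checked because whole bodies contain them. Of 14, 3 were higher, and their summed level was 23400 to 28600 at Day 10 and 27200 to 30400 at Day 40. NimC1, a phagocytosis receptor, rose from 3.0, 2.99 and 2.99 to 6.09, 5.38 and 5.88 (2.79, SE 0.20, adjusted p = 0.00559), Sr-CI, a scavenger receptor, by 1.12 and eater by 0.85. Hml, the most used haemocyte marker, had a change of 0.46 (adjusted p = 0.0823) and did not pass. The part of haemocyte number in the immune changes was not tested.

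In the controls the same immune lists were higher with age, with 6 of 12 antimicrobial peptides and 9 of 9 Bomanins (medians of 1.46 and 2.58). The change in DN-Dmp53 minus the change in controls was -1.89 for edin (adjusted p = 0.359), -2.28 for AttD (0.211), -2.36 for DptB (0.171) and -1.26 for Mtk (0.428), and none of these differences passed. BomS6 was the only immune effector of these lists that did, with a rise of 1.06 in DN-Dmp53 and of 2.33 in controls (difference -1.27, adjusted p = 0.0393), and this call was lost in 8 of 12 fits that left out 1 array. Its level in DN-Dmp53 females was 12.29 ± 0.04 at Day 10 and 13.34 ± 0.22 at Day 40, against 11.23 ± 0.35 and 13.56 ± 0.13 in controls (SD, n = 3), so that the groups were farther apart at Day 10.

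Detoxification genes made up the next large set of rises. Of 74 cytochrome P450 genes, whose enzymes oxidise foreign compounds and hormones, 17 were higher and 1 lower (median 0.30). Cyp4p3 rose from 6.93, 6.78 and 6.16 to 9.17, 8.67 and 9.31 (2.42, SE 0.29, adjusted p = 0.012), Cyp309a1 by 1.97 and Cyp4p1 by 1.94, and the member that fell was Cyp6a19 (-0.68). Of 33 glutathione S-transferases 10 were higher and none lower (median 0.31), with GstD5 going from 3.40, 3.41 and 3.71 to 6.45, 5.48 and 7.02 (2.81, SE 0.43, adjusted p = 0.0184), GstD2 rising by 1.67 and GstD10 by 1.54. UDP-glycosyltransferases, which attach sugars to such compounds, gave 6 higher of 32 (median 0.24), led by Ugt303A1 at 1.25. With Day 40 replicate 2 alone 3 P450s, 4 glutathione S-transferases and 1 UDP-glycosyltransferase were called higher. Leaving out 1 array gave between 6 (Day 10 replicate 2) and 21 (Day 40 replicate 2) higher P450s, between 3 (Day 10 replicate 1) and 10 transferases, and between 1 (Day 40 replicate 1) and 5 UDP-glycosyltransferases. Irc, an immune-regulated catalase, was the 1 higher gene of 15 for peroxide and superoxide removal (1.39), and the transferrins Tsf3 and Tsf1, iron carriers, were the 2 of 17 for metal handling (1.96 and 1.28).

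Of 18 heat shock and chaperone genes 3 were called higher and 2 lower, and the median was -0.17. The cochaperone stv rose by 1.03 and the DnaJ protein Droj2 fell by 0.61. The others were called at secondary probesets, with l(2)efl higher, and Hsc70-1 higher at one probeset and lower at another. The small heat shock genes Hsp26 and Hsp27 had changes of -0.36 and -0.39, with adjusted p of 0.0166 and 0.0136 but below the fold required.

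**Figure D3:**
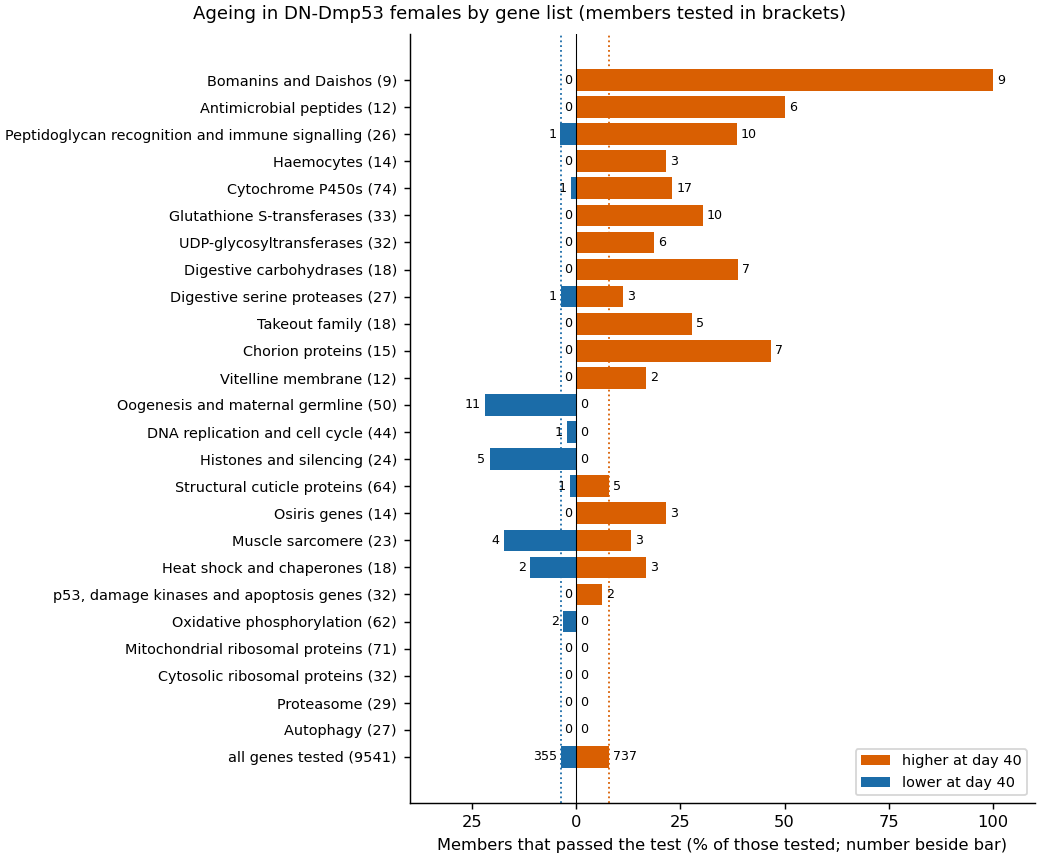
Share of the tested members of 25 gene lists, and of all genes tested, that passed the test as higher (orange, to the right) or lower (blue, to the left) at Day 40 in DN-Dmp53 females, in percent, with the number beside each bar and dotted lines at the shares over all genes, 7.72% and 3.72%. Immune, detoxification and chorion lists lie to the right, and oogenesis and chromatin lists to the left.

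Muscle genes included both the clearest fall and one of the clearest rises. Scp1, a calcium-binding protein of the sarcoplasm, was at 12.18, 12.12 and 12.16 at Day 10 and at 8.85, 8.73 and 8.67 at Day 40. This change of -3.40 (SE 0.05, adjusted p = 0.000383) was the largest fall among the genes' main probesets, and it was -3.46 in the controls. Act88F, the actin of the flight muscle, went the other way, from 6.76, 6.87 and 6.62 to 10.50, 10.30 and 10.42 (3.66, SE 0.09, adjusted p = 0.00114), although actin genes resemble each other closely and a probeset may not separate them. Of 23 sarcomere genes 3 were higher and 4 lower (median -0.06). TpnC4 and TpnC41C, troponin C genes, fell by 1.55 and 0.92 on the log2 scale, and fln, which codes for flightin of the thick filament, fell by 1.44. The myosin light chain gene Mlc2 rose by 1.18, and Mlp60A (1.22) and Strn-Mlck (-3.5) were called at probesets other than the brightest. On Day 40 replicate 2 alone 1 member was called higher and none lower.

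As a sign of RNA quality, the 3′ to 5′ difference in the actin control probes was 1.43 and 1.37 log2 units on Day 10 replicates 1 and 2, but 0.59 on Day 10 replicate 3 and 0.45, 0.74 and 0.82 on the Day 40 arrays. Replicate 3 of Day 10 thus lay among the Day 40 arrays, and the counts of called genes fell most when Day 10 replicate 1 or 2 was left out. In the controls the actin difference was 2.27, 2.04 and 0.47 on the Day 10 arrays and 0.49, 1.10 and 1.54 on the Day 40 arrays. The part of RNA quality in any change, or in any difference from the controls, was not tested.

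Ovary genes divided into those of the eggshell and those of the germline. Of 15 chorion genes, which follicle cells express as they lay down the outer eggshell, 7 were higher with age and none was lower (median 0.82). yellow-g2 rose from 11.01, 11.25 and 11.27 to 12.13, 12.47 and 12.38, a change of 1.16 (SE 0.12, adjusted p = 0.0104). Femcoat rose from 10.84, 10.62 and 10.77 to 11.72, 12.03 and 11.46 (0.99, SE 0.17, adjusted p = 0.0221), CG15571 by 1.35 and CG15570 by 0.93. Vitelline membrane genes, for the inner eggshell, gave 2 higher of 12, CG13084 at 1.14 and CG13083 at 0.97. Yolk protein genes did not pass (0 of 4), with Yp1 at 15.87, 15.87 and 15.94 and then at 15.87, 15.88 and 15.87. Whether values this high and this alike lay at an upper limit of the array was not tested, so a steady Yp1 level cannot be read from them. From Day 40 replicate 2 alone the chorion median was 1.02, with 3 members called higher. The chorion count was 1 without Day 10 replicate 1 or replicate 2, and 2 without Day 40 replicate 1. The vitelline membrane count was 0 without any 1 of these arrays.

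In the controls no chorion gene passed in either direction and the median was -0.62. The difference between the age changes of DN-Dmp53 and control females had a median of 1.30 over the 15 genes but passed for yellow-g2 alone (1.64, adjusted p = 0.0389, lost in 10 of 12 fits that left out 1 array), in which the controls stood at 11.41 ± 0.05 at Day 10 and at 10.92 ± 0.51 at Day 40 (SD, n = 3). For CG15570 it was 2.04 (adjusted p = 0.0758).

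Genes listed for oogenesis and the maternal germline, not all of them particular to it, numbered 50, of which 11 were lower and none was higher (median -0.24). bcd, the maternal determinant of the head, fell from 12.05, 12.15 and 11.91 to 10.85, 11.23 and 10.98, a change of -1.02 (SE 0.12, adjusted p = 0.0125). stau, which places maternal RNAs in the egg, went from 10.79, 10.96 and 10.63 to 9.57, 10.11 and 9.99 (-0.91, SE 0.18, adjusted p = 0.0304), and pum, a translational repressor of the germline, fell by 0.83 on the log2 scale. zfh1, a list member that is not particular to the germline, fell by 0.79. Controls had 17 members lower and 1 higher, with a median of -0.42, and no member of the list passed in the difference between the groups' age changes. With Day 40 replicate 2 alone 3 of the 50 were called lower and 1 higher, and the median was -0.21. Without Day 10 replicate 1 or 2, 4 were lower, and without Day 10 replicate 3, Day 40 replicate 1 or Day 40 replicate 3, 7, 6 and 6 were.

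**Figure D4:**
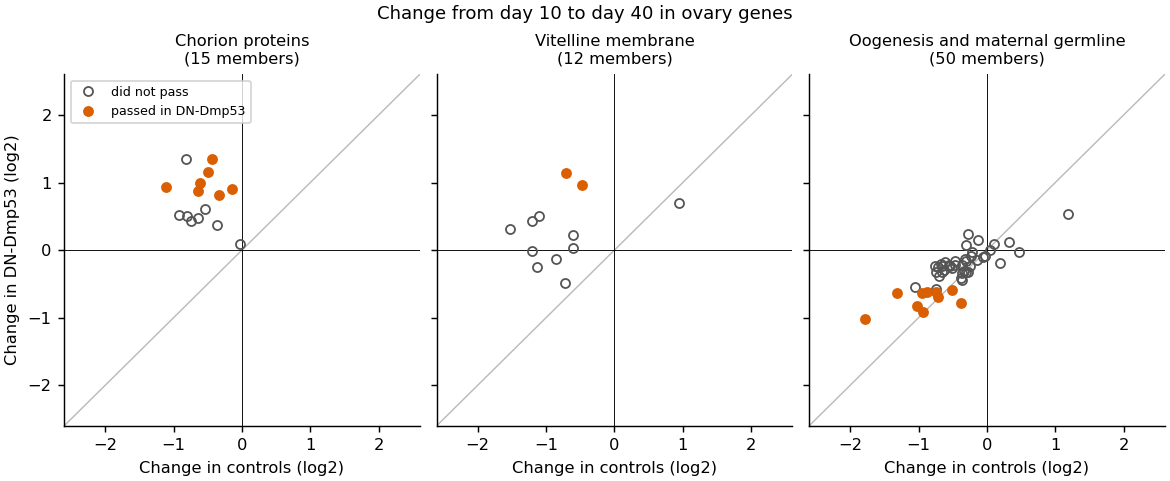
Change from Day 10 to Day 40 (log2) in DN-Dmp53 females (vertical axis) against that in control females (horizontal axis) for the tested members of 3 ovary gene lists, with filled orange circles for members that passed in DN-Dmp53 females at their main probeset and a grey line of equal change. The 15 chorion genes have positive changes in DN-Dmp53 females and negative ones in controls, and most oogenesis genes are negative in both.

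Of 24 chromatin genes 5 were called lower, against 3.72% of all genes, and none higher (median -0.34), and 19 did not pass. The insulator proteins Cp190, su(Hw) and CTCF fell by 0.87, 0.75 and 0.71 on the log2 scale, and BigH1, the linker histone of the early embryo, fell by 0.62, with mod(mdg4) called at another probeset, and 1 member was called lower on Day 40 replicate 2 alone. The Cp190 values were 12.35, 12.37 and 12.37 at Day 10 and 11.45, 11.69 and 11.33 at Day 40. In DNA replication and the cell cycle 1 of 44 genes was lower, Rbf (-0.62), and the median was -0.20. The controls had 11 of these 44 lower, and the difference in age change did not pass in any member.

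Among 32 genes of p53 itself, the damage kinases and apoptosis, 2 were higher and none was lower, and the median was -0.16. These counts are no more than the shares over all genes (7.72% and 3.72%). Damm, a caspase, rose from 9.16, 9.44 and 9.47 to 10.67, 10.17 and 11.03 (1.26, SE 0.25, adjusted p = 0.0309), and egr, the TNF ligand, from 7.88, 7.59 and 7.81 to 8.65, 8.65 and 8.98 (1.0, SE 0.13, adjusted p = 0.0139). The initiator caspase gene Dronc had a change of -0.39 and the Bcl-2 relative Debcl one of -0.47, both below the fold required, with adjusted p of 0.0104 and 0.00656. The difference from controls did not pass for Damm (-1.32, adjusted p = 0.0826). Neither Damm nor egr was called from Day 40 replicate 2 alone.

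Among genes of digestion, 7 of 18 carbohydrases were higher and none lower (median 0.47), including the maltases Mal-A6, from 10.73, 10.77 and 10.54 to 12.36, 12.06 and 12.46 (1.61, SE 0.13), Mal-A2 (1.35), Mal-A8 (1.31) and Mal-A4 (1.30). Serine proteases of the gut were mixed, with 3 of 27 higher (etaTry, Ser6 and kappaTry, from 0.90 to 1.20) and Jon65Ai lower by 0.85 on the log2 scale. The shares over all genes were 7.72% higher and 3.72% lower. Midgut markers had 4 of 12 higher (median 0.60), some of them also members of the carbohydrase list, and the part of gut tissue in these changes was not tested. On Day 40 replicate 2 alone 1 carbohydrase and 4 serine proteases were called higher. The takeout family, secreted proteins that bind hydrophobic ligands such as juvenile hormone, had 5 of 18 higher (median 0.36), with Jhbp7 going from 5.16, 5.38 and 5.14 to 7.13, 6.23 and 7.16 (1.61) and Jhbp12 rising by 1.27, but none was called from Day 40 replicate 2 alone.

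Metabolic genes changed singly. tobi, an insulin-responsive glucosidase, rose by 1.22 and ImpL2, which binds insulin-like peptides, by 0.86, the 2 of 18 insulin and TOR genes that passed. Lip4, a lipase, rose by 1.04 and Lsd-2, a coat protein of lipid droplets, fell by 0.78 on the log2 scale, out of 32 genes of fat metabolism. Pepck1, of gluconeogenesis, rose by 0.92 and Gpdh1, which makes glycerol-3-phosphate, fell by 0.59. The calls of Lip4 and Pepck1 were lost without Day 10 replicate 1 or 2 or Day 40 replicate 1 or 3. That of Gpdh1 was lost without Day 10 replicate 2 or Day 40 replicate 1. Measured on Day 40 replicate 2 alone, the changes were 1.09 for tobi, 0.78 for ImpL2, 0.70 for Lip4 and -0.66 for Lsd-2. They were 0.98 for Pepck1 and -0.57 for Gpdh1. Oxidative phosphorylation had 2 of 62 lower, which is no more than the 3.72% of all genes, and none higher (median 0.01). These were COX7AL2, from 11.80, 11.78 and 11.77 to 10.23, 10.40 and 10.58 (-1.38), and ND-B8, from 5.52, 4.71 and 5.38 to 2.11, 2.34 and 2.73 (-2.81, a minimum since a Day 40 array was at the floor).

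Several lists had no member called in either direction by limma: 32 cytosolic and 71 mitochondrial ribosomal proteins (medians of 0.10 and 0.08), 29 proteasome genes (0.07), 27 autophagy genes (0.10) and 13 clock genes (-0.03). Their medians were within the quartiles of all genes.

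Cuticle genes differed from the controls in their change with age. In DN-Dmp53 females themselves 5 of 64 structural cuticle genes were higher and 1 was lower, which is no more than the shares over all genes (7.72% and 3.72%). Cpr66D rose from 5.37, 4.44 and 4.22 to 8.10, 7.81 and 7.87 (3.25, SE 0.34, adjusted p = 0.0102), TwdlF from the floor on all 3 arrays to 3.74, 4.23 and 5.48, and Cpr51A from 6.30, 5.40 and 5.41 to 7.53, 7.05 and 7.36, while Cpr62Bb and Acp65Aa rose by 1.43 and 0.83 and Pcp fell by 1.62. Of 14 Osiris genes, which are expressed in cells that secrete cuticle, 3 were higher (median 0.90). Osi15 went from 4.25, 4.41 and 3.99 to 6.32, 7.01 and 7.80 (2.83, SE 0.41, adjusted p = 0.0169), Osi6 from 8.58, 8.75 and 8.36 to 10.55, 10.95 and 11.52 (2.44), and Osi14 rose by 2.37. On Day 40 replicate 2 alone these 3 did not pass (adjusted p of 0.0532, 0.057 and 0.0537), while 3 Osiris genes and 2 cuticle genes in all did. Without Day 10 replicate 1 no Osiris gene was called in limma, and without Day 10 replicate 2, 1 was. When any 1 of the Day 10 arrays was left out, 2 cuticle genes were called higher and 1 lower.

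The controls had 26 of 76 cuticle genes and 6 of 14 Osiris genes lower with age. The difference in age change was positive for 22 of 79 cuticle genes and for 5 Osiris genes, and negative for none, against 1.14% positive and 0.772% negative over all genes. In the members named next the groups were farthest apart at Day 10. TwdlN, a Tweedle cuticle protein, was at 8.16 ± 0.24 in the controls at Day 10 and at 2.13 ± 0.01 at Day 40 (SD, n = 3), but at the floor at both ages in DN-Dmp53 females, at 2.13 ± 0.02 and 2.14 ± 0.01 (difference 6.05, adjusted p = 1.29e-07). At the floor only a bound is known, so this difference is the fall in controls, itself a minimum. Lcp65Ag3 was at 10.01 ± 0.31 and 2.19 ± 0.13 in controls and at 2.78 ± 0.38 and 2.93 ± 0.22 in DN-Dmp53 females (7.96, adjusted p = 2.94e-06). Osi15, at 8.66 ± 0.37 in controls at Day 10 and 3.63 ± 2.11 at Day 40, gave a difference of 7.85 (adjusted p = 0.021, lost without any 1 of the DN-Dmp53 Day 10 arrays or control Day 10 replicates 1 and 2), Osi14 gave 5.82 (0.0101) and Cpr51A 4.87 (0.0008). The dSir2 females resembled the controls at Day 10, with 7.38 ± 0.43 for TwdlN and 9.17 ± 0.48 for Lcp65Ag3.

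**Figure D5:**
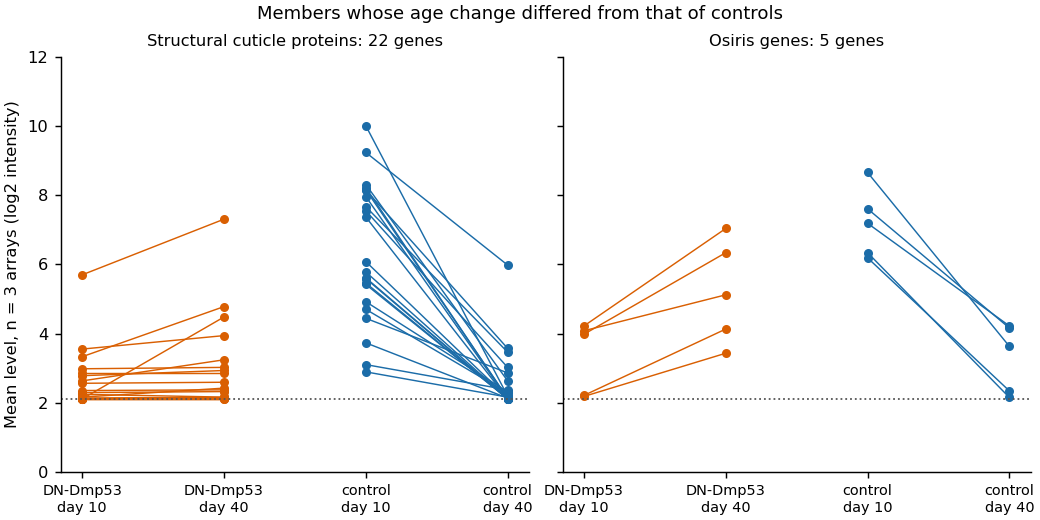
Mean level of 3 arrays in log2 intensity (vertical axis) at each age in DN-Dmp53 (orange) and control (blue) females for the 22 structural cuticle genes and 5 Osiris genes whose age change differed between these groups, with lines joining the ages of a gene and a dotted line at the floor. Controls fall from high Day 10 levels, while DN-Dmp53 females start low and stay low or rise.

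Across all genes, 1113 were higher with age in controls (11.6%) and 1025 lower (10.7%), and 565 of them were higher in both groups, 76.7% of the genes higher in DN-Dmp53 females and 50.8% of those higher in controls. For lower genes the number in common was 277, 78.0% of those of DN-Dmp53 and 27.3% of those of the controls tested in both, and 12 and 3 genes were called in opposite directions. The changes in induced and control females had a Pearson r of 0.712 and a Spearman rho of 0.753 over 9115 genes, which are not independent replicates. The difference in age change between these groups passed for 114 genes in the positive direction and for 77 in the negative, with 406 and 482 at an unadjusted p below 0.05. The balance turned to 121 and 144 with each array centred on its median, and to 118 and 164 without the arrays with male transcripts. Of the 114, 24 were themselves higher with age in DN-Dmp53 females, and of the 77, 30 were, these last having risen less than in controls. Without Day 10 replicate 1 of the DN-Dmp53 females the negative count was 28, and without replicate 2 it was 29. It was 41 without Day 10 replicate 3 and 47 without Day 40 replicate 1, and without control Day 10 replicates 1 and 3 it was 32 and 35 in turn.

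Negative differences were led by proteases. CG17234, a serine protease gene, was at 9.0, 8.55 and 9.63 in DN-Dmp53 females at Day 10 and at 7.45, 8.29 and 6.79 at Day 40, a change of -1.55 that did not pass (adjusted p = 0.0976), while the controls rose by 4.89 from 2.98 ± 0.51 (SD, n = 3). The difference was -6.44 (adjusted p = 0.000997). Send2, a spermathecal endopeptidase, went from 9.66, 9.22 and 10.41 to 6.86, 8.45 and 6.72 (-2.42, adjusted p = 0.0544) against a rise of 3.14 in controls (difference -5.57, adjusted p = 0.00464). CG3739, CG42397 and CG13075 had differences of -3.07, -2.52 and -3.13, the last with an adjusted p of 0.0543 with the replicate number as a block. The clock genes tim and vri, named after their values were seen, did not pass with age in DN-Dmp53 females (-0.29 and 0.15) but rose by 1.28 and 1.32 in controls. The difference was -1.57 for tim (adjusted p = 0.00362) and -1.17 for vri (0.0329, and 0.0614 with the replicate block), the latter lost in 8 of 12 fits that left out 1 array. tim stood at 9.92 ± 0.13 in DN-Dmp53 females at Day 10 against 8.06 ± 0.24 in the controls (SD, n = 3). Of the 13 clock genes tested, 2 were higher and 2 lower with age in the controls (median 0.10). Only tim and vri among the 13 passed in the difference between the groups.

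Against dSir2-overexpressing females, which also received RU486, 85 differences passed (0.842%), 41 of them positive (0.406%) and 44 negative (0.436%), with 258 and 359 at an unadjusted p below 0.05. In these females 956 genes were higher (9.84%) and 745 lower (7.67%) with age, 502 and 203 of them in common with DN-Dmp53 females, or 68.1% and 57.2% of the DN-Dmp53 genes. Lsp2, a larval serum protein, was at 9.95, 10.07 and 9.60 and then 9.87, 10.96 and 9.70 in DN-Dmp53 females (0.30, adjusted p = 0.658), but rose from 6.25 ± 0.20 to 10.40 ± 0.24 (SD, n = 3) in dSir2 females (difference -3.84, adjusted p = 0.00869). Act88F rose by 1.80 more in DN-Dmp53 females (adjusted p = 0.0121). It also rose by 3.30 in the controls, and its difference between DN-Dmp53 and control females was 0.35 (adjusted p = 0.5). TwdlN, TwdlB and TwdlL again gave positive differences, of 4.97, 4.91 and 3.86. A probeset for a pseudogene of the 18S ribosomal RNA, 18SrRNA-Psi:CR41602, was at 2.28 on every Day 10 array and at 6.24, 5.80 and 6.32 at Day 40 (3.84, SE 0.15, adjusted p = 0.00326). It was at 2.28 ± 0.01 in dSir2 females at Day 40 (difference 3.79, adjusted p = 5.52e-05) and at 7.12 ± 0.46 in controls, and near-identical copies of this sequence make its source uncertain. These counts too moved with single arrays, and without dSir2 Day 10 replicate 3 they were 74 and 69, while without DN-Dmp53 Day 10 replicates 1, 2 and 3 in turn they were 18 and 15, 12 and 14, and 23 and 29. Without DN-Dmp53 Day 40 replicates 1, 2 and 3 they were 22 and 19, 35 and 21, and 19 and 22. They were 31 and 26 without dSir2 Day 10 replicate 1, 17 and 16 without replicate 2, and 34 and 20 without dSir2 Day 40 replicate 1.

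The construct acts in neurons, and the shares called among genes of the nervous system were near those of all genes (7.72% higher and 3.72% lower). Of 24 neuronal and synaptic genes 1 was lower, unc-13, which primes synaptic vesicles (9.54, 9.51 and 9.44 and then 9.0, 8.58 and 8.84, a change of -0.69, adjusted p = 0.0225), and the median was -0.20. From Day 40 replicate 2 alone the median of this list was -0.38, and in the controls it was 0.0. No member passed in the difference between the age changes of DN-Dmp53 and control females. Of 25 neuropeptide genes Orcokinin and AstC rose by 0.69 and 0.64 and Nplp3, a neuropeptide-like precursor, fell from 10.66, 10.71 and 10.58 to 8.81, 8.86 and 9.09 (-1.73, SE 0.09, adjusted p = 0.00394). Neither rise among the neuropeptides is firm, since 1 was called without Day 40 replicate 2 and 0 without any other single array. The call of unc-13 was likewise lost without Day 10 replicate 1 or 2 or Day 40 replicate 2 or 3. Of 26 genes of juvenile hormone and ecdysone, ImpE2 and ImpL1, which ecdysone induces, rose by 1.64 and 1.49, and Jhedup, a juvenile hormone esterase duplication, fell by 1.02 on the log2 scale. The nuclear receptor genes ftz-f1 and usp fell by 0.77 and 0.60, and MsrA, an ecdysone-induced methionine sulphoxide reductase, by 0.67. This hormone list thus had 2 members higher and 4 lower. Without Day 10 replicates 1, 2 and 3 in turn it had 0, 1 and 1 higher, and 1, 1 and 3 lower.

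Among the remaining large changes were genes with little or no annotation. CG18563 was at the floor on all 3 Day 10 arrays and at 6.98, 5.43 and 7.81 at Day 40, at least 24.7-fold higher (adjusted p = 0.016). CG9150 rose from 2.31, 2.36 and 2.39 to 6.30, 6.20 and 6.45 (3.96, SE 0.07, adjusted p = 0.00046), CG33296 by 3.76 and CG4757 by 3.58. Falls were found in CG43163 (-2.96), CG12105 (-2.5), BobA (-2.34) and CheA87a (-1.79), and Abl, a tyrosine kinase gene, went from 8.17, 8.60 and 8.52 to 6.63, 6.94 and 6.59 (-1.71, SE 0.16, adjusted p = 0.00888). Measured on Day 40 replicate 2 alone, which had a part in these calls, the rises were 3.32 for CG18563, 3.85 for CG9150, 3.49 for CG33296 and 2.74 for CG4757. The falls were -3.48 for CG43163, -1.96 for CG12105, -3.02 for BobA, -2.13 for CheA87a and -1.49 for Abl.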

How the data were processed

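Whole-body total RNA of female flies was hybridised to Affymetrix Drosophila 2.0 arrays. The deposited values are log2 intensities that the authors computed with GCRMA and quantile normalization. The scanner files were not used here. Groups were taken from the sample labels. The array has 18952 probesets. After removal of 183 control probesets, 13647 named 1 gene in the platform annotation (402 named several and 4720 had no entry) and 13544 of these matched the RefSeq gene table. A probeset was tested if its mean exceeded the 25th percentile in at least 1 of the groups compared. On the arrays compared, 45.0% to 45.5% of probesets were at the floor, and precision is limited by there being 3 arrays in a group.

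Day 40 and Day 10 were compared with limma 3.58.1 in R 4.3.3 (lmFit and eBayes, Benjamini-Hochberg adjustment over all probesets tested), and called genes needed an adjusted p below 0.05 and a fold over 1.5. This adjustment differs from the study's t-test at a p of 0.01, which was run as an alternative. A gene was called where any probeset naming it alone passed, and its value is that of its probeset with the highest mean over the 42 arrays. Differences in age change between groups were interaction terms. The scripts were tested on simulated data. Same-numbered DN-Dmp53 and control arrays deviated together within each age (r of 0.61, 0.42 and 0.76 at Day 10, and of 0.30, 0.28 and 0.20 at Day 40), so the replicate number within each age was also used as a block.

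The members and gene lists were chosen with earlier results of these data known. Named genes were the 10 largest rises and falls whose arrays did not overlap, up to 4 called members of each list, the 5 largest differences in each direction of each interaction, and p53. Members of lists with 5 or fewer calls, and tim, vri, BomS6 and Tl, were added after their values were seen. Alternatives changed the filter, the arrays in the fit, the weights, the normalization, the test and the replicates.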

Additional observations from a re-analysis of the deposited data

Results flagged for a closer look

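Several age changes differed between groups by the interaction test in limma, which is what marked them out. Against the control females the difference in log2 change was 8.71 for CG2962, 8.22 for TwdlF, 7.96 for Lcp65Ag3, 7.85 for Osi15, 6.79 for CG9083, 6.13 for TwdlB, 6.05 for TwdlN, 5.92 for CG17290, 5.82 for Osi14, 5.28 for TwdlL and 4.87 for Cpr51A. TwdlF, CG9083, TwdlB, TwdlN and TwdlL were at or near the floor in DN-Dmp53 females at Day 10 and in controls at Day 40, so that their differences rest on bounds and are not exact sizes. It was 1.97 for Obp19c (adjusted p = 0.0835 with the replicate number within each age as a block) and 1.64 for yellow-g2. Negative differences were -6.44 for CG17234, -5.57 for Send2, -3.13 for CG13075, -3.07 for CG3739, -2.52 for CG42397, -2.18 for CG18609 (adjusted p = 0.0556 with the block), -1.57 for tim, -1.27 for BomS6 and -1.17 for vri.

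Against dSir2-overexpressing females the difference was 4.97 for TwdlN, 4.91 for TwdlB, 4.17 for CG9825, 4.06 for CG17290, 3.86 for TwdlL, 3.79 for 18SrRNA-Psi:CR41602, 1.80 for Act88F and 0.67 for LManII. It was -3.84 for Lsp2, -3.13 for nw, -3.03 for CG43163, -2.84 for CG15533, -2.67 for CG18609, -2.55 for Jhedup and -1.23 for BomS6. TwdlN, TwdlB and TwdlL again lay at or near the floor in DN-Dmp53 females at both ages. In the controls Act88F and LManII rose by 3.30 and 0.79 and CG43163 had a change of -3.59, and none of these genes passed against controls. CG43163 was near the floor in dSir2 females at both ages, at 2.14 and 2.21. Of 12 fits that left out 1 array, the call against dSir2 females was lost in 10 for BomS6, in 9 each for CG9825, CG17290, nw and CG15533, in 8 for LManII and in 1 for Jhedup. Against controls it was lost in 10 each for Obp19c and yellow-g2, in 8 each for BomS6 and vri, and in 5 for Osi15.

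Among probesets that name several genes or none, which entered no gene count, 92 were higher and 51 lower with age.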

How the results depend on the processing

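No named gene changed direction under any alternative. Among all genes called with age, 1 to 3 were called the opposite way in each fit that left out 1 array, and Hsc70-1 was called both ways, at different probesets, in the full comparison. The counts of higher and lower genes with age, 737 and 355, became 398 and 63 at a fold over 2, 200 and 136 with a replicate block, for which Day 10 and Day 40 arrays of one number did not deviate together (r of -0.23, 0.13 and -0.13), and 582 lower genes with array weights. They ranged from 192 to 873 and from 148 to 439 when single replicates were left out, and were 176 and 59 without both Day 40 arrays with male transcripts, an alternative added after seeing the data. Against controls (114 and 77), no absent filter gave 38 negative, all 14 groups in 1 fit 206 and 200, array weights 124 negative, arrays centred on their median 144 negative, a replicate block within each group of flies 46 negative, the fit without the arrays with male transcripts 164 negative, and single replicates left out 76 to 156 and 28 to 93. Against dSir2 females (41 and 44), no filter gave 19 and 19, array weights 187 and 253, and centring 76 negative. A block on the replicate number, shared across both ages within DN-Dmp53 and within dSir2 females, gave 1 and 0. Single replicates left out gave 12 to 74 and 14 to 69. The cause of these moves was not tested.

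Of 146 genes named for the age comparison, the block kept the call, or the lack of one, in 58, Day 40 replicate 2 alone in 51, a fold over 2 in 103 and no filter in 120, while the fits that left out 1 array kept it in 65 to 134. Signal near the floor limits the folds of dim genes, and 3 arrays a group limit the rest.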

Other observations

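Odorant-binding protein genes, which carry scents and other small ligands in the fluid of sensory hairs and elsewhere, gave 6 higher and 3 lower of 33 tested, with a median of 0.01. Obp56a rose from 8.21, 8.20 and 7.41 to 10.43, 9.93 and 10.48 (2.34, SE 0.30, adjusted p = 0.0134) and Obp57b by 1.05, while Obp19b fell by 1.27, and Obp28a and Obp83b by 0.81 each, on the log2 scale. From Day 40 replicate 2 alone none was called higher and 1 lower. Obp19c rose by 1.10 in DN-Dmp53 females and had a change of -0.87 in controls (adjusted p = 0.0733).

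In one-carbon metabolism 2 of 11 genes were higher, against 7.72% of all genes: Sardh (1.15) and Gnmt (0.90), which use sarcosine and glycine. Neither call is firm, since 0 members were higher without any 1 of the Day 10 arrays or without Day 40 replicate 1. Measured on Day 40 replicate 2 alone, the changes were 1.46 for Sardh and 1.28 for Gnmt. Gnmt had a change of -0.52 in the controls (adjusted p = 0.352), and the difference of 1.43 did not pass (adjusted p = 0.146). Among 10 genes of the spermatheca and female tract 1 was higher. This was Bbd, which is also known as an immune gene induced through Toll and needed for Bomanin function, and it went from 12.43, 12.58 and 12.71 to 14.82, 14.16 and 14.95 (2.06, SE 0.24, adjusted p = 0.0118), with a rise of 2.87 in the controls.

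By chromosome, genes of the X had 5.95% higher and 5.56% lower of 1512 tested, and those of 2R 9.37% and 3.60% of 1942. On the fourth chromosome, which has few genes, 2 of 64 were higher and 4 lower. By level at Day 10, genes between 6 and 8 had 190 higher and 27 lower of 1003 tested, and those between 10 and 12 had 142 and 161 of 2513.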
